A study of Mus musculus with 12 samples.

Results

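The 2 arrays titled replicate 1, 1 from wild type cells and 1 from G9a knockdown cells, were compared with the 4 arrays titled replicate 2 or 3 of the same study. They make up 2 of 6 hybridizations, each deposited as a GCRMA and a MAS5 column, so the series holds 12 columns. The pair was chosen from the same GCRMA values that are described here, because both arrays deviated from the others over all probe sets. The difference between the pair and the other arrays is therefore a description and carries no test. The array's control transcripts, which were not among the probe sets used for the choice, are the exception.

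All samples are mouse erythroleukemia (MEL) cells, a virus-derived erythroid line that begins to mature toward red cells when dimethyl sulfoxide (DMSO) is added. The study set 3 wild type arrays against 3 arrays of cells with knockdown of G9a, an enzyme that methylates lysine 9 of histone H3 and is the product of Ehmt2, and its title names β-globin expression as the question. Both groups were grown in 2% DMSO for 4 days. The same protocol text, with doxycycline at 5 µg/ml to start the knockdown, stands for both groups, and the labels do not say whether wild type cells received it, what the knockdown construct is or whether the line is 1 clone. They also do not say what a replicate number stands for or whether replicates were separate cultures, so every p-value below measures only how these 6 arrays vary, and part of that may be technical.

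MEL cells divide quickly before DMSO and slow down as they mature, while hemoglobin, heme enzymes and red cell membrane proteins build up. Genes for mitosis are switched on late in the cell cycle and genes for DNA replication earlier, so both groups follow the share of cycling cells. A different set of RNAs, among them Malat1, Neat1 and Xist, is made and kept in the nucleus, and several genes for splicing factors produce alternative transcripts that keep an intron.

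Levels below are GCRMA log2 values, and a replicate 1 difference is the mean of the 2 replicate 1 arrays minus the mean of the other 4, on the log2 scale. A probe set was tested if it lay above log2 4 in at least 3 of 6 arrays, which left 17028 of 45101 probe sets and 9025 genes. A probe set is said to stand apart if both replicate 1 arrays lay beyond all 4 others on the same side and the difference was at least 2-fold. By that rule 204 probe sets were higher (1.20% of those tested) and 332 were lower (1.95%). Counting each gene once, through its brightest tested probe set annotated to that gene alone, 121 genes were higher (1.34%) and 98 were lower (1.09%). Without a minimum size, both replicate 1 arrays lay above all others at 3035 probe sets (17.8%) and below all others at 2271 (13.3%). These shares come from the contrast that chose the arrays and are given only as a description.

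The lower differences reached further than the higher ones. The median difference was 1.21 among the 204 higher probe sets and −1.50 among the 332 lower ones. Past 4-fold there were 2 higher and 75 lower probe sets, and the extremes were 2.07 and −6.43. The filter keeps a probe set that is dim on the replicate 1 arrays and bright elsewhere, but not the reverse: 67 of the 332 lower probe sets were at or below log2 4 on both replicate 1 arrays, where the size of a difference depends on the background model. Without any filter the counts past 4-fold were again 2 and 75, and with all 6 arrays above log2 4 they were 2 and 50. Just outside the 2-fold limit were Tpmt (0.9959) and Nmral1 (0.9965), and just inside it were Mospd2 (−1.001) and Maco1 (−1.003). The differences within wild type and within the knockdown correlated at 0.72 across the 17028 probe sets, which share arrays and are not independent. The MAS5 columns, made from the same hybridizations, had the same sign at 203 of the 204 higher and all 332 lower probe sets. Sizes were smaller there: in MAS5 60 of the 204 and 256 of the 332 were at least 2-fold, with medians of 0.87 and −1.36.

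**Figure D1:**
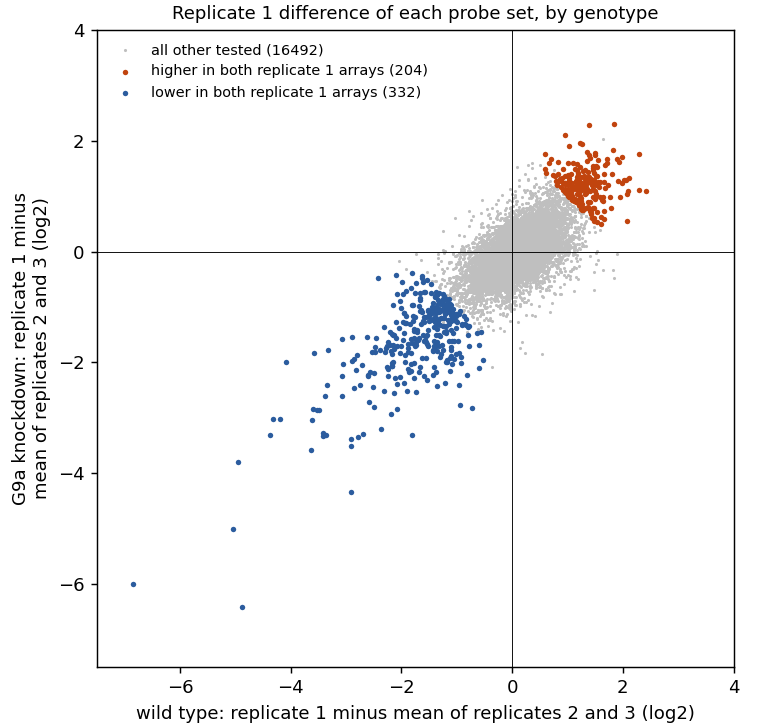
Each point is a tested probe set, with its replicate 1 difference in wild type on the x axis and in the G9a knockdown on the y axis, both on the log2 scale. The 204 probe sets that stood apart and higher (red) stay within 2.07 on average over the genotypes, whereas the 332 lower ones (blue) run down to −6.43.

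The split by number was larger than the split by genotype in these data. With 6 arrays the spread of each probe set divides into 5 terms, and summed over the tested probe sets the replicate 1 term held 48.8% of it. Genotype held 18%, replicate 2 against 3 held 15.8%, and the terms for genotype by number held 8.62% and 8.80%. In MAS5 the replicate 1 term held 40.5% and genotype 18.2%. Taking the numbers in pairs, 414 probe sets differed at least 2-fold in the same direction in both genotypes between numbers 1 and 2, and 358 did so between numbers 1 and 3. Between numbers 2 and 3 there were 29. The median size of the mean difference was 0.20 for numbers 1 and 2, 0.20 for numbers 1 and 3, and 0.14 for numbers 2 and 3.

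**Figure D2:**
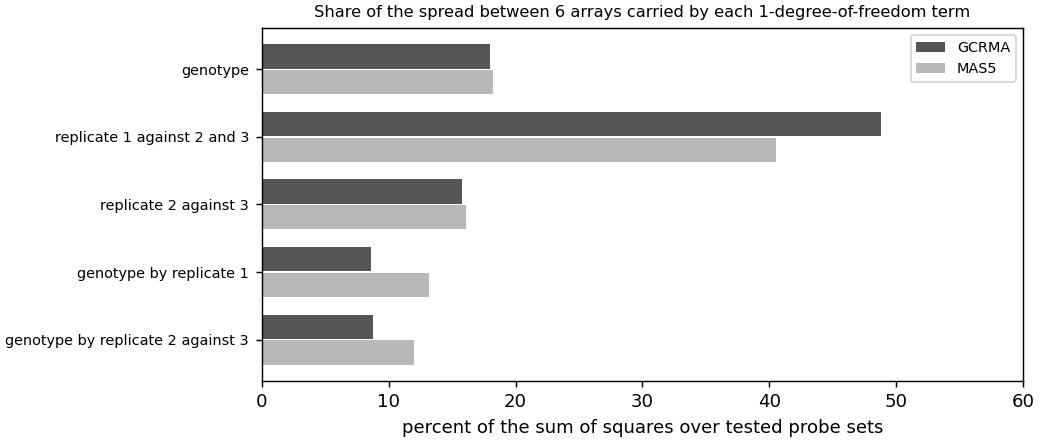
Bars give the percent of the sum of squares over 17028 tested probe sets that each of 5 terms held, for GCRMA (dark) and MAS5 (light). Replicate 1 against 2 and 3 is the longest bar in both, at 48.8% and 40.5%.

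Mitotic genes were higher in both replicate 1 arrays. All 25 genes of the list for mitosis and the spindle lay above 0, and the list's median difference was 1.15 beside 0.056 over all 9025 genes, of which 58.5% lay above 0. Of the 25, 16 stood apart and higher, 0 stood apart and lower, and in 24 both replicate 1 arrays lay above all others. Cenpe, a kinetochore motor, was the exception to the last count, with a difference of 0.13. Over all genes 1.34% stood apart and higher, and at 17.8% of tested probe sets both replicate 1 arrays lay above all others. In a bulk sample, more cells of a kind and more RNA per cell cannot be told apart.

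The start of transcription of 3 of these genes is shown because they lead the list and because a CCAAT box is a common feature of promoters used late in the cell cycle. Each sequence is the 200 bases before the RefSeq start (GRCm38.p6), read on the gene's strand, and the capitals mark CCAAT and TTTGAA on either strand. Plk1 lies at chr7:122159235-122159434 on the plus strand, Ccnb2 at chr9:70421555-70421754 on the minus strand and Bub1b at chr2:118598011-118598210 on the plus strand.
Plk1: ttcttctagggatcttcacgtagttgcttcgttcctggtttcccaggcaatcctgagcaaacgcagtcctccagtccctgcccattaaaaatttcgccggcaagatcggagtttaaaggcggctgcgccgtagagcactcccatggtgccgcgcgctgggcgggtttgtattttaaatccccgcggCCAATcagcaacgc
Ccnb2: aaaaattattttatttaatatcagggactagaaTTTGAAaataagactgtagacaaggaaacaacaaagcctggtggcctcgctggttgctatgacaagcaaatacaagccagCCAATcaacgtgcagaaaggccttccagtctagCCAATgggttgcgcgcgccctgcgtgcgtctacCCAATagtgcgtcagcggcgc
Bub1b: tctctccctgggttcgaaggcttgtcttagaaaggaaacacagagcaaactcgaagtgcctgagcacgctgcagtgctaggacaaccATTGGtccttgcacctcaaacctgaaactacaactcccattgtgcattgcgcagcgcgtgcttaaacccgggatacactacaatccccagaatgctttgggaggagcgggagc
Ccnb2 carries 3 CCAAT matches and 1 TTTGAA match in this window, and Plk1 and Bub1b carry 1 CCAAT match each. Past the start, outside this window, each of the 3 genes also holds 1 TTTGAA match. Counted from the start it lies at position 30 in Plk1, 4 in Ccnb2 and 40 in Bub1b. TTTGAA is the core of the cell cycle homology region, a site known from promoters of late cell cycle genes. Both motifs were searched on both strands in the 250 bases before the start, where they can share a base. Matches after the start are not in the shares that follow. CCAAT was found in 18 of 21 mitosis genes with a promoter in the RefSeq table (85.7%), in 41.5% of tested genes and in 37.5% of all genes. TTTGAA was found in 8 of the 21 (38.1%), in 12.3% of tested genes and in 18.3% of all genes. Of the genes apart and higher, 58.8% of 97 held CCAAT and 24.7% held TTTGAA, and of the genes apart and lower, 47.5% of 80 and 11.2% did. Of the 21 genes for DNA replication with a promoter, 61.9% held CCAAT and 9.52% held TTTGAA. A match describes the letters of the window and is not evidence of binding.

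Plk1, a kinase that drives entry into mitosis, read 9.29, 7.77 and 6.96 in wild type arrays 1, 2 and 3, and 9.04, 7.48 and 7.36 in knockdown arrays 1, 2 and 3. Both replicate 1 values lie more than 1 log2 unit above every other array, and the replicate 1 difference is 1.78. Bub1b, a spindle checkpoint kinase, read 7.99, 6.65 and 5.51 in wild type and 7.58, 6.55 and 6.04 in the knockdown, a difference of 1.60. Ccnb2, a mitotic cyclin, read 9.68, 8.60 and 7.43 in wild type and 9.78, 8.57 and 8.17 in the knockdown, a difference of 1.53. Ccna2, a cyclin of S phase and early mitosis, read 9.96, 8.95 and 8.06 in wild type and 9.94, 8.53 and 8.34 in the knockdown, a difference of 1.48. In each of these 4 genes the replicate 1 array was the highest of its genotype, and the replicate 2 array was higher than the replicate 3 array. Over the list, the median of replicate 2 minus replicate 3 was 0.45. The median deviation of the list from each gene's own mean was 0.75, −0.086 and −0.80 on wild type arrays 1, 2 and 3, and 0.77, −0.18 and −0.45 on knockdown arrays 1, 2 and 3.

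The other mitosis genes that stood apart cover the same machinery. Ttk and Aurka are mitotic kinases, Ube2c feeds the anaphase-promoting complex, Kif11 and Kif20a are spindle motors, Birc5 and Cdca8 belong to the chromosomal passenger complex, and Top2a untangles chromosomes. Cdk1, the kinase that pairs with the mitotic cyclins, read 10.01 and 10.06 on the replicate 1 arrays, and its other 4 values were 9.09, 8.65, 9.04 and 8.73. Mki67, the proliferation antigen Ki-67, read 11.22 and 11.24 on the replicate 1 arrays and 10.05 to 10.78 on the others, so the groups did not overlap although it missed the 2-fold limit.

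DNA replication genes were also higher, by a smaller margin. Of 26 genes, 25 lay above 0 (median difference 0.73), 5 stood apart and higher, and in 19 both replicate 1 arrays lay above all others. Over all genes 58.5% lay above 0 and 1.34% stood apart and higher. At 17.8% of tested probe sets both replicate 1 arrays lay above all others. Uhrf1, which guides maintenance DNA methylation at replication forks and also binds methylated histone H3 lysine 9, read 9.26, 7.85 and 7.89 in wild type and 8.36, 7.07 and 6.96 in the knockdown. Its difference was 1.37, and within each genotype replicate 1 was the highest array. Lig1, the ligase of the lagging strand, differed by 1.22, Mcm5, a subunit of the replicative helicase, by 1.03, and the helicase factor Gins1 also by 1.03. The last 2 lie at the 2-fold limit: without wild type replicate 1, Mcm5 differed by 0.98 and Gins1 by 0.79. In MAS5 Gins1 differed by 0.24. Slbp, which binds histone mRNA, was the single gene with a negative difference (−0.042). Replicates 2 and 3 lay closer together here than in the mitosis list, since the median deviations were 0.71, −0.082 and −0.12 in wild type and 0.24, −0.39 and −0.33 in the knockdown. The difference between the 2 lists was not tested.

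**Figure D3:**
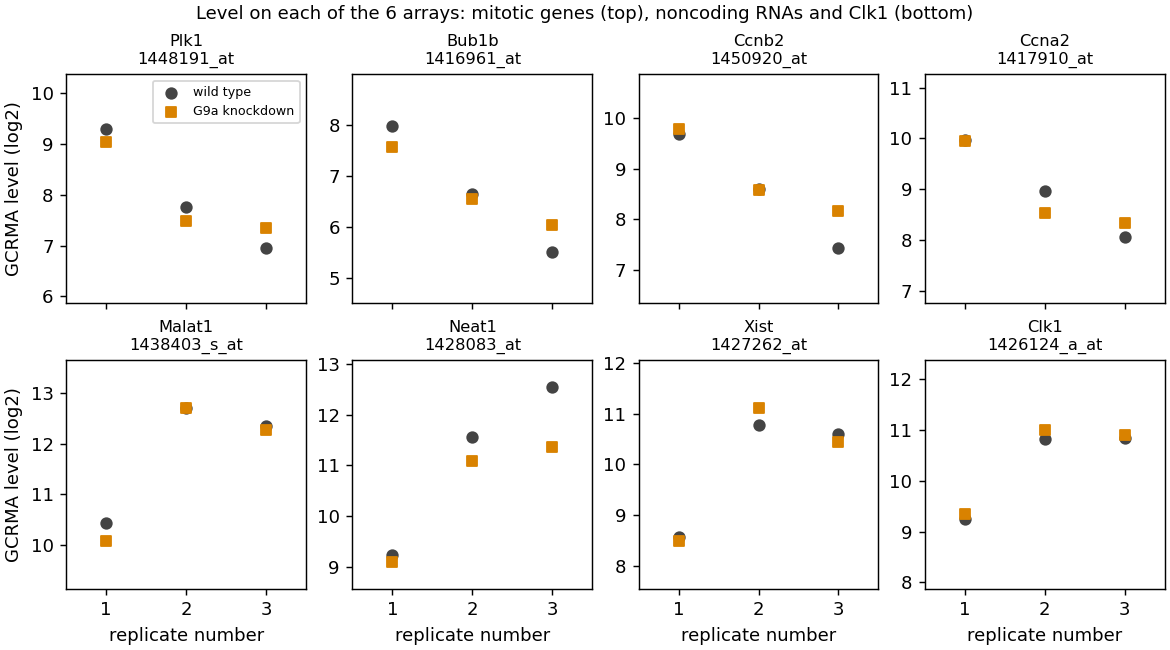
The log2 GCRMA level of 8 genes on each array, with the replicate number on the x axis, wild type as dots and the G9a knockdown as squares; every panel spans the same number of log2 units. Plk1, Bub1b, Ccnb2 and Ccna2 are highest on both replicate 1 arrays, and Malat1, Neat1, Xist and Clk1 are lowest there.

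Nuclear long noncoding RNAs were much lower on both replicate 1 arrays. Malat1, one of the most abundant nuclear noncoding RNAs, has 7 tested probe sets, and all 7 stood apart and lower, with differences from −6.43 to −2.14. Its brightest probe set (1438403_s_at) read 10.44, 12.70 and 12.35 in wild type and 10.09, 12.70 and 12.28 in the knockdown, a difference of −2.24. Its most extreme one (1436202_at) read 4.46, 11.33 and 11.31 in wild type and 5.48, 12.14 and 10.83 in the knockdown, a difference of −6.43. The replicate 1 values there are near the filter of log2 4, while the other 4 arrays are bright.

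Neat1, the RNA scaffold of nuclear paraspeckles, read 9.23, 11.56 and 12.55 in wild type and 9.09, 11.09 and 11.37 in the knockdown, a difference of −2.48. Xist, the RNA that coats the inactive X chromosome, read 8.56, 10.78 and 10.60 in wild type and 8.49, 11.11 and 10.43 in the knockdown at its brightest probe set. All 3 Xist probe sets stood apart and lower, with differences from −3.61 to −2.20. Firre, another X-linked nuclear RNA, read 3.41 and 3.43 on the replicate 1 arrays, below log2 4, and 6.01 to 7.10 on the others. The imprinted antisense RNA Kcnq1ot1 differed by −2.14 (−0.98 in MAS5) and the imprinted RNA Meg3 by −1.13. Snhg3, a host gene of small nucleolar RNAs, differed by −1.38. Long noncoding RNAs by RefSeq class were 15 of 97 lower genes with a class (15.5%), 3 of 121 higher genes (2.48%) and 1.68% of all tested genes. Gene length differed less: the median was 17.9 kb for higher genes, 17.2 kb for lower genes and 23.1 kb for all.

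The list of nuclear noncoding RNAs and splicing factors held 22 tested genes, of which 20 lay below 0, and the median difference was −0.67. Of the 22, 7 stood apart and lower, and in 15 both replicate 1 arrays lay below all others. Over all genes 58.5% lay above 0 and 1.09% stood apart and lower. At 13.3% of tested probe sets both replicate 1 arrays lay below all others. The list's median deviations were −0.56, 0.18 and 0.31 on wild type arrays 1, 2 and 3, and −0.31, 0.26 and 0.18 on knockdown arrays 1, 2 and 3. Clk1, a kinase that phosphorylates splicing factors, read 9.24, 10.82 and 10.84 in wild type and 9.34, 11.01 and 10.90 in the knockdown, a difference of −1.60. The related kinase Clk4 differed by −1.51. The splicing factors themselves were nearer to 0 at their brightest probe sets, with Srsf5 at −0.39, Srsf6 at −0.097 and Srsf3 at −0.081. The exceptions in sign were Snhg8 (0.69) and Srsf2 (0.051).

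Within many genes the probe sets disagreed, and the dimmer ones carried the lower signal. Of 261 lower probe sets with 1 gene, 163 were not the brightest of their gene. Over all 15581 tested probe sets with 1 gene, 9025 were the brightest of their gene and the rest were not. Their median difference was −1.53, while that of the same genes' brightest probe sets was −0.38. The brightest one lay within 0.5 of 0 for 92 of the 163, was also at least 2-fold lower for 36, and had the opposite sign for 25. Among the 68 higher probe sets that were not the brightest, the medians were 1.21 and 0.96, and the brightest one lay within 0.5 of 0 for 11. In MAS5 the medians were −1.43 and −0.33 on the lower side and 0.80 and 0.77 on the higher side. The dimmer probe sets had to differ at least 2-fold and the brightest ones did not, so a smaller median in the brightest is partly built in. These counts were drawn up after the values had been seen, and the genes named in the next paragraphs were chosen from them.

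**Figure D4:**
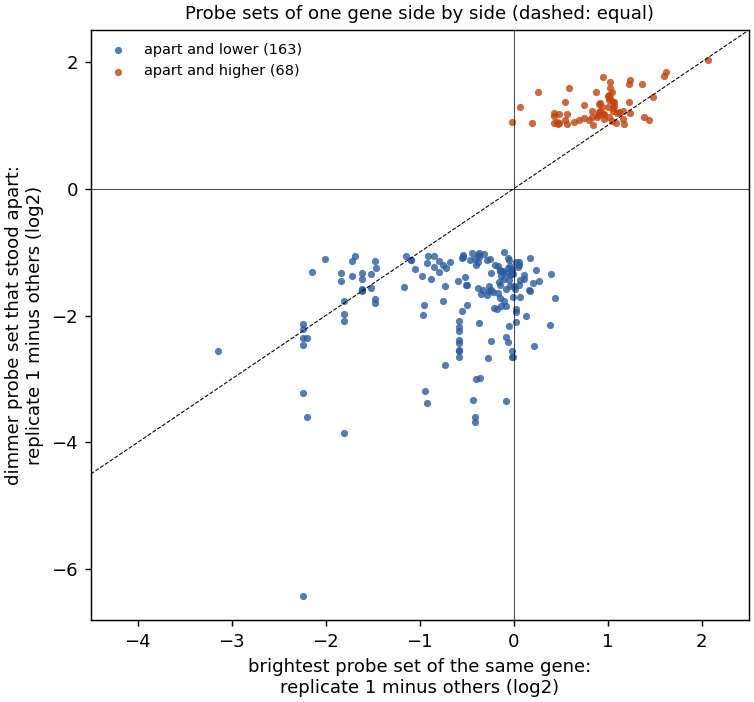
Each point is a probe set that stood apart but was not its gene's brightest, with its own replicate 1 difference on the y axis and that of the brightest probe set on the x axis, both in log2 units; the dashed line marks equal values. The 68 red points (higher) sit near the line, and many of the 163 blue points (lower) sit far below it, near 0 on the x axis.

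Rbm39, a splicing factor related to U2AF, has 11 tested probe sets, of which 8 stood apart and lower, with differences from −2.66 to −2.08. Its brightest probe set read 10.98, 11.57 and 11.68 in wild type and 11.26, 11.70 and 11.86 in the knockdown, a difference of −0.58. Gas5, a host gene of small nucleolar RNAs, was split in the same way. At 1436222_at it read 5.84, 9.97 and 10.33 in wild type and 6.72, 10.11 and 9.40 in the knockdown, a difference of −3.67. At its brightest probe set, 1419291_x_at, it read 12.38, 12.91 and 13.16 in wild type and 13.04, 13.42 and 13.00 in the knockdown, a difference of −0.41, with overlapping groups.

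Luc7l2, a factor of the U1 snRNP, read 4.68, 8.29 and 7.92 in wild type and 4.70, 8.61 and 7.35 in the knockdown at 1436766_at, a difference of −3.35. A second probe set, 1436767_at, also stood apart at −1.85, and the other 4 lay between −0.38 and −0.049, with the brightest, 1437761_at, at −0.079. Snrnp70, the U1 protein itself, differed by −3.00 at 1429009_at and by −0.40 at its brightest probe set. Pabpn1, the nuclear poly(A) binding protein, differed by −2.99 at 1422850_at, and its other 3 probe sets lay between −0.36 and −0.072. Sfpq, a paraspeckle and splicing protein, differed by −2.49 at 1436898_at and by 0.22 at its brightest probe set. Hnrnpu, a nuclear matrix RNA binding protein, differed by −2.42 at 1434390_at, by −1.09 at 1434391_at and by −0.055 at its brightest probe set.

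Ogt, the enzyme that adds O-linked N-acetylglucosamine to proteins, was lower at all 5 tested probe sets, with differences from −3.85 to −1.77. Pnisr, a splicing-associated protein, was lower and apart at 6 of 7 probe sets and Taf1d, a component of the RNA polymerase I factor SL1, at 4 of 7. The brightest Taf1d probe set differed by −0.018. Ddit3, a transcription factor of the stress response, differed by −3.34 at 1443897_at, with 4.80 and 4.86 on the replicate 1 arrays and 7.94 to 8.41 on the others, and by −0.43 at its brightest probe set. Which transcript each of these probe sets reads was not tested, because the files give no probe sequences.

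Histone H3.3 shows the same split between probe sets at the largest size. A probe set annotated to H3f3b alone (1430357_at) read 4.67, 10.04 and 9.06 in wild type and 4.15, 11.73 and 9.42 in the knockdown, a difference of −5.65. It stands for H3f3b in the gene counts, because probe sets annotated to several genes were not used there. The 5 probe sets annotated to H3f3b together with other H3.3 genes and copies read 14.1 to 15.2 on every array, and their differences ran from −0.31 to 0.11. H3c7, a replication-dependent histone H3 gene, differed by −3.21 at its brightest tested probe set, from 4.39 and 3.55 on the replicate 1 arrays to 7.04 to 7.40 on the others, and by −1.93 in MAS5. Over the histone list, 6 of 10 genes had a positive and 4 a negative difference, and the sign of its median (0.035) turned with the scaling and in MAS5.

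The other genes at the low end are mixed. Casp4, an inflammatory caspase, read 3.10, 8.14 and 3.89 in wild type and 3.13, 8.41 and 6.53 in the knockdown, so wild type replicate 3 lay much nearer to the replicate 1 arrays than to the replicate 2 arrays. Its difference was −3.63, and −1.80 in MAS5. A probe set annotated to the microRNA gene Mir142 differed by −3.07 and one annotated to Tspoap1 by −3.04 (−2.002 in the knockdown arrays alone); arrays of this kind read longer transcripts, and no mature microRNA was measured. Cdhr4 differed by −3.15, the properdin gene Cfp by −2.03 and E330020D12Rik by −2.17. Gm19710 and G530011O06Rik differed by −2.33 and −2.84.

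At the high end, cell cycle and DNA repair genes stood beside genes of the immune system and the cell surface. Itm2a, a membrane protein, read 8.53, 6.001 and 7.38 in wild type and 8.24, 6.07 and 5.81 in the knockdown, a difference of 2.07. The centriole gene Poc1a differed by 1.85 and the repair nuclease genes Eme1 and Exo1 by 1.83 and 1.60. The cohesion factor Cdca5 differed by 1.62 and the helicase factor Cdc45 by 1.60. Tcf19, a gene expressed at the start of S phase, differed by 1.67 and the potassium channel subunit Kcne3 by 1.70, which was 1.11 without wild type replicate 1. Cst7, an inhibitor of lysosomal proteases, differed by 1.60, the immune checkpoint ligand Pdcd1lg2 by 1.57 and Alg14, an enzyme of N-glycan assembly, by 1.58. In MAS5 the 15 genes named by size at the high end differed by 0.49 to 1.84, with Pdcd1lg2 at 0.67, Tcf19 at 0.76 and Exo1 at 0.89.

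Interferon and antigen presentation genes had list medians above that of all genes, with few members apart. In the interferon list 18 of 21 genes lay above 0 (85.7%, beside 58.5% of all genes) and the median was 0.27. In it 2 genes stood apart and higher and 1 lower, while over all genes 1.34% were higher and 1.09% lower. Similar shares lay above 0 in lists of other kinds, among them glycolysis (85.7%), the proteasome (85.2%) and endoplasmic reticulum chaperones (85%). Oas1a, an antiviral sensor of double-stranded RNA, read 6.95 and 6.97 on the replicate 1 arrays and 5.04 to 5.73 on the others, a difference of 1.63. Psmb9, an immunoproteasome subunit, read 5.84 and 5.31 on the replicate 1 arrays and 3.64 to 4.26 on the others, a difference of 1.61. In MAS5 both were under the 2-fold limit, at 0.71 for Oas1a and 0.49 for Psmb9. Samd9l, an interferon-induced growth suppressor, went the other way at −1.41 (−0.61 in MAS5). All 11 genes for MHC class I and antigen presentation lay above 0 (median 0.20), and so did all 10 of the NF-κB list (median 0.32). The MHC median was 0.48 among wild type arrays alone and 0.16 among knockdown arrays alone.

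The heme synthesis, red cell membrane and terminal erythroid lists were close to level between the replicate 1 arrays and the rest. The median difference was −0.0025 over 12 heme synthesis genes, −0.071 over 20 red cell membrane genes and 0.051 over 16 terminal erythroid genes, and each of these medians changed sign under at least 1 alternative. The iron handling list leaned lower: 3 of 13 genes lay above 0, and its median of −0.088 kept its sign in all 14 settings. Adult β-globin, read by a probe set annotated to several adult genes, stood at 14.86 to 15.20 on all 6 arrays. Its difference was −0.069, near the top of a scale that ends at 16.49. Adult α-globin, read by 3 probe sets that its gene pair shares, had differences of −0.37, −0.083 and −0.072. At the first of them both replicate 1 arrays lay below all others, and at the other 2 the groups overlapped. Hbb-b2 had a probe set of its own (1427866_x_at) that read 9.58 and 9.86 on the replicate 1 arrays and 10.20 to 10.92 on the others, a difference of −0.79 (wild type alone −1.23, knockdown alone −0.36), and its second probe set differed by −0.43 with overlapping groups.

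Single erythroid genes did differ. Car1, carbonic anhydrase of red cells, read 7.96, 6.48 and 6.16 in wild type and 10.16, 8.24 and 8.03 in the knockdown. Replicate 1 was the highest array within each genotype, above the mean of the other 2 by 1.64 in wild type and by 2.03 in the knockdown, and the knockdown was also higher at each number, so the pooled groups overlap. Pklr, the red cell pyruvate kinase, differed by 1.03 and Steap3, an iron reductase, by 1.01. Hmox1, which breaks down heme, differed by −1.35, with knockdown replicate 3 far above the others at 9.94; the difference was −0.85 without that array, −0.60 without knockdown replicate 1 and −2.10 without wild type replicate 1. Without 1 array, the differences of Pklr and Steap3 fell under the 2-fold limit, to as little as 0.89 for Pklr without knockdown replicate 1 and 0.82 for Steap3 without wild type replicate 3.

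Erythroid transcription factors went in both directions. Myb, which holds progenitors in division, read 5.64 and 5.98 on the replicate 1 arrays and 4.26 to 5.12 on the others, a difference of 1.22 at its brightest probe set. Its other probe sets differed by 0.33, with overlapping groups, and 0.42. Bcl11a, a repressor of embryonic globin genes, read 9.39 and 9.59 on the replicate 1 arrays and 8.50 to 8.61 on the others, a difference of 0.92. Gata1, the main erythroid transcription factor, differed by 0.35 and Klf1 by 0.25, while Foxo3 differed by −0.48, Cbfa2t3 by −0.30, Tal1 by −0.19 and Gata2 by −0.10. In all, 17 of 24 genes of this list lay above 0 (70.8%, beside 58.5% of all genes), the list median was 0.17, and Myb alone stood apart.

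Stress and growth lists showed smaller shifts. In the immediate early list, 12 of 16 genes lay below 0 (median −0.34), while 58.5% of all genes lay above it. Zfp36, which destabilises cytokine mRNAs, stood apart and lower at −1.13. The hypoxia list had a median of −0.20, which was 0.048 in wild type arrays alone and −0.32 in knockdown arrays alone, the list of ATF4 targets 0.19 and endoplasmic reticulum chaperones 0.19. Within the ATF4 list the serine synthesis genes Psat1 and Phgdh differed by 0.94 and 0.89 and the mTOR inhibitor Ddit4 by −0.75 (−1.04 in wild type and −0.46 in the knockdown). Cytosolic ribosomal proteins (median 0.094, 36 genes), the respiratory chain (0.12, 34 genes) and the proteasome (0.15, 27 genes) lay slightly above the median of all genes (0.056). Of their genes, 80.6%, 82.4% and 85.2% lay above 0. In MAS5 the median of the ribosomal proteins was −0.047, that of the respiratory chain 0.10 and that of the proteasome 0.098. The list for histone H3 lysine 9 methylation had 10 positive and 10 negative genes and a median of 0.00015.

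**Figure D5:**
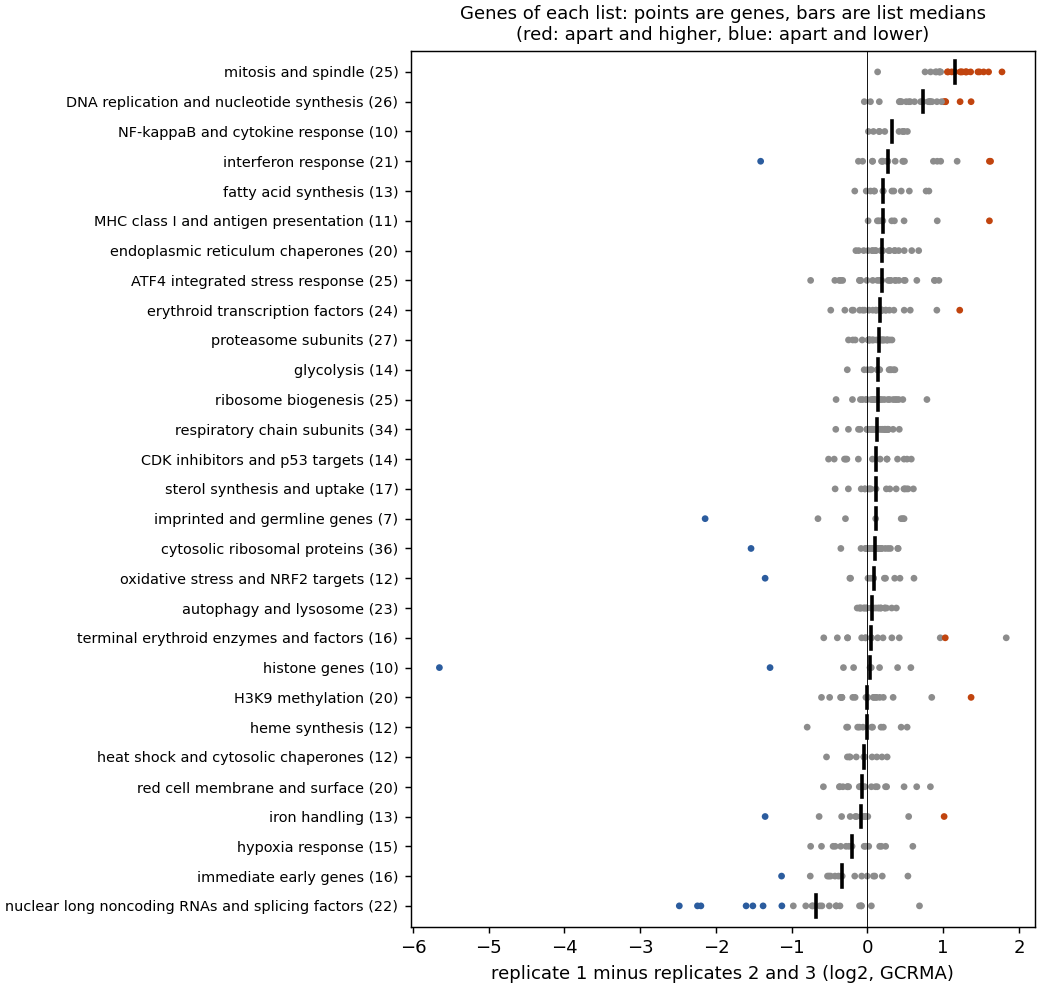
Replicate 1 differences on the log2 scale for the genes of each list with at least 5 tested genes; points are genes, black bars are list medians, red and blue points stood apart and higher or lower, and the number of genes tested is in brackets. The mitosis list (median 1.15) and the DNA replication list (0.73) lie to the right, and the list of nuclear RNAs and splicing factors (−0.67) lies farthest to the left.

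Markers of other cell types and control transcripts were measured beside these differences, and their part in the results was not tested. Of 13 lymphoid markers 12 were below log2 4 on every array, as were all 9 mast cell and basophil markers, 13 of 19 myeloid and 14 of 16 fibroblast or endothelial markers, Col1a1, Pecam1, Mpo and Lyz2 among them. The summed level of the fibroblast and endothelial list was 8.05 to 8.28 on the replicate 1 arrays and 7.62 to 7.89 on the others, with Vim and Pdgfrb its only members above log2 4. For myeloid and megakaryocyte markers the sums overlapped, at 8.83 to 9.18 against 8.43 to 9.14 and 13.35 to 13.50 against 13.11 to 14.03. Of 5 tested megakaryocyte and platelet markers, 3 lay above 0 and 2 below, with a median of 0.11 (−0.0032 in MAS5). The platelet genes Gp5 and Pf4 were the highest of them, at 1.32 and 0.94, and in MAS5 at 0.24 and 0.67. Itga2b was the lowest, at −0.23. Erythroid identity markers summed to 15.82 to 15.98 on all arrays. Kit, a progenitor receptor, was below log2 4 throughout.

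For the array's own controls a two-sided exact permutation test was run, but with 2 and 4 arrays its smallest possible p is 0.0667, so no control could pass. The 3′ minus 5′ signal of β-actin was 0.97 and 1.00 on the replicate 1 arrays and 1.07 to 1.19 on the others, a difference of −0.13 (exact p = 0.0667, 0.244 after adjustment over 11 controls), so both replicate 1 arrays were the lowest; in MAS5 the groups overlapped (−0.094). That of Gapdh differed by −0.056 (exact p = 0.267, adjusted 0.587). The hybridization controls BioDn and CreX were lower on both replicate 1 arrays than on all others, with differences of −0.42 and −0.22, each with an exact p of 0.0667 and an adjusted p of 0.244; in MAS5 they differed by −0.38 and −0.26 with overlapping groups. BioB and BioC differed by −0.46 and −0.36, with overlapping groups. The median of the tested probe sets lay between 8.09 and 8.20 on all 6 arrays.

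The split bears on the knockdown comparison through the spread it adds. The median residual SD per probe set was 0.20 with genotype as the only term and 0.16 with a replicate 1 term added. That term was chosen from these same values for its size, so a drop was built in. The p-values and calls of fits with the term share this limit and may be too small. Ehmt2 read 7.43, 7.07 and 6.82 in wild type and 4.29, 4.28 and 4.17 in the knockdown at 1426888_at. At 1460692_at it read 9.92, 10.03 and 10.23 in wild type and 6.67, 7.33 and 7.58 in the knockdown, so both probe sets were lower in all 3 knockdown arrays, replicate 1 included. With the replicate 1 term, limma called 3 of 17028 probe sets (0.0176%), all lower in the knockdown. Ehmt2 fell by 2.86 (SE 0.14, adjusted p = 0.0132) and by 2.87 (SE 0.16, adjusted p = 0.0172). Fis1, a mitochondrial fission factor, fell by 1.37 (SE 0.089, adjusted p = 0.0289) at 1443819_x_at, a probe set that is not its brightest. The Fis1 values there were 7.58, 7.39 and 7.42 in wild type and 6.20, 6.0 and 6.06 in the knockdown. Car1 was 1.94 higher (SE 0.15) but did not pass, with an adjusted p of 0.0524. Without the replicate term 1 probe set was called, of Ehmt2, and with the replicate number as a block 2 were, both of Ehmt2. At an unadjusted p under 0.05 there were 1814 probe sets with the term, 999 without it and 2329 with the block. In MAS5 0 probe sets were called, and leaving out any 1 array left 0 calls, except that 1 Ehmt2 probe set remained without wild type replicate 3.

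Whether the knockdown difference itself depended on the replicate number was tested as an interaction with replicate 1. By limma, 0 of 17028 probe sets passed (0%), and in MAS5 also 0. The fit left few residual degrees of freedom, and the pair was chosen because both of its arrays deviated in these values. The outcome therefore does not show that the replicate 1 difference was equal in the genotypes. At an unadjusted p under 0.05 there were 618, of which 169 were higher and 449 lower, and 751 in MAS5. A share of 0.05 of 17028 tests, expected with no interaction, is larger than either count. The lean to lower values was not stable. MAS5 had 467 higher and 284 lower, median centring gave 282 and 241, and a second quantile normalization gave 248 and 249. The lowest p-values belonged to Stmn3, Crebl2, Bag3, Tspan5 and Luc7l, each with an adjusted p of 0.9997. Stmn3, a microtubule regulator, read 7.78, 9.14 and 9.11 in wild type and 9.07, 9.16 and 9.08 in the knockdown, so a single array, wild type replicate 1, was low. Luc7l, a relative of Luc7l2, read 6.97, 7.64 and 7.92 in wild type and 5.63, 7.92 and 7.80 in the knockdown.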

How the data were processed

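RNA from 6 samples of MEL cells was read on Affymetrix mouse expression arrays, and the deposited matrix holds each array as a MAS5 and a GCRMA column, per the labels. The authors' GCRMA values are log2 values, from 0.69 to 16.49, and the deposited MAS5 values are intensity on a linear scale. Versions of both tools, and their options, were not given in the sources used here. GCRMA models background and normalizes arrays together, which compresses dim values and equalises overall level between arrays. The 2 summaries were never counted as separate replicates, and MAS5, as log2(value + 1), served as a check.

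Of 45101 probe sets, 64 controls were left out, and those above log2 4 in at least 3 of 6 arrays were tested. The platform annotation names 1 gene for 15581 tested probe sets, several for 490 and none for 957. A gene was represented by its brightest tested probe set among those annotated to it alone. The members and gene lists were chosen with earlier results of these data known. Named were every Ehmt2 probe set, the 15 genes at each end among those apart with the same sign in MAS5, up to 4 members of each list by size, and genes called (or the 5 of lowest p) in each test; other genes in the text were chosen after their values were seen. The 30 gene lists and 6 marker lists hold 798 symbols, of which 90 have no probe set of their own here.

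The knockdown difference and its interaction with replicate 1 were fitted with limma 3.58.1 in R 4.3.3 (lmFit, eBayes, Benjamini-Hochberg, threshold 0.05). Scripts were tested on simulated data. Deviations from the genotype mean correlated at 0.72, 0.57 and 0.37 where arrays shared a number and at −0.59 to 0.17 otherwise. The 0.72 belongs to the arrays chosen for their deviation, and deviations within a genotype cancel out, which draws values for unlike numbers below those for like ones. Between numbers 2 and 3 alone, wild type and knockdown differences correlated at 0.29, with the same sign at 60.9% of tested probe sets. The labels state no pairing, and whether the numbers pair the arrays was not tested. A fit with the number as a block was run as well. Alternatives were another summary, filter, centring, normalization and fold limit, array weights, each genotype alone and each array left out. Promoters came from a RefSeq table of GRCm38.p6. The number of arrays limits the precision.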

Additional observations from a re-analysis of the deposited data

How the results depend on the processing

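The 204 higher probe sets became 84 in MAS5, 65 with a MAS5 pseudocount of 16, 130 with a filter at log2 6, 720 at 1.5-fold and 356 in wild type arrays alone. The 332 lower ones became 423 in MAS5, 356 with the MAS5 pseudocount of 16, 210 with the filter at log2 6 and 714 at 1.5-fold. MAS5 shared 59 of the higher and 252 of the lower probe sets with the GCRMA sets. With all 6 arrays above log2 4, a setting chosen after seeing the data, there were 177 and 226. Leaving out 1 array gave 214 to 339 higher and 327 to 392 lower probe sets, and the 339 came without knockdown replicate 1. The 3 knockdown calls became 0 in MAS5, 0 with replicates 2 and 3 alone, 1 without a filter, 1 without the replicate term, 2 with the replicate block, 5 after median centring, 6 with array weights and 7 with the filter at log2 6. Leaving out any 1 array left 0 to 1 calls, the 1 being Ehmt2 without wild type replicate 3; a fit without 1 replicate 1 array equals that of replicates 2 and 3 alone. The interaction had 0 calls in each alternative run. Probe sets that differed 2-fold between numbers 2 and 3 were 68 in MAS5. In MAS5 the control differences were 0.013 for Gapdh, −0.0857 for Dap, −0.761 for Lys, −0.206 for Phe, 0.139 for Thr and −0.455 for Trp, whose GCRMA levels are near background. The medians of the mitosis (0.96 to 1.25), DNA replication (0.46 to 0.81) and nuclear RNA (−0.83 to −0.51) lists kept their sign in all 14 settings.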
